A study of Mus musculus with 8 samples.

Results

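LIN28 proteins, the let-7 microRNA precursors they bind and the enzymes that act on those precursors form 1 regulatory axis of embryonic stem cells, and 8 genes of it were followed here. They were chosen by name: the paralogs Lin28a and Lin28b, the precursor genes Mirlet7d, Mirlet7f-1 and Mirlet7g, the terminal uridylyltransferases Zcchc11 and Zcchc6, and the exonuclease Dis3l2. All 8 are among the 7820 transcripts of the CLIP table and the 16456 of the poly(A) table, and 4 are among the 7936 of the ribosome footprint table. Each gene has 1 listed transcript.

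All 8 libraries came from A3-1, a mouse embryonic stem cell line cultured in serum-containing medium with the self-renewal cytokine LIF. CLIP sequences the RNA that was crosslinked to a protein in cells and then immunoprecipitated; it was done against LIN28A in cells given no siRNA, with the monoclonal antibodies 35L33G and 2J3 and with 1 polyclonal antibody, 1 library each. Polyadenylated RNA was sequenced from siLin28a cells, from siLuc cells and from untreated cells, 1 library each, siLin28a and siLuc being siRNAs against Lin28a and against luciferase left on for 48 h. Ribosome footprints, the mRNA fragments that ribosomes protect, were sequenced from siLin28a and siLuc cells, 1 library each. A control immunoprecipitation is not among the libraries analysed here, so CLIP is set against the poly(A) RNA of untreated cells.

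LIN28A is a cytoplasmic RNA-binding protein of pluripotent cells that holds the loop of let-7 precursors through a cold-shock domain and a pair of zinc knuckles. It recruits ZCCHC11 (TUT4) and, with overlapping function, ZCCHC6 (TUT7), which add uridines to the 3′ end of the precursor, and DIS3L2 degrades the uridylated RNA. Mature let-7 in turn represses Lin28a and Lin28b mRNA through their 3′ untranslated regions, so the pathway is a double-negative loop that keeps let-7 low in stem cells. LIN28A also binds many mRNAs directly.

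The 3 precursor hairpins are printed because they carry the element that the LIN28A zinc knuckles are known to contact, GGAG, shown in capitals. Sequences are from RefSeq on GRCm38.p6, at chr13:48536012-48536114 on the minus strand for Mirlet7d, chr13:48537829-48537917 on the minus strand for Mirlet7f-1 and chr9:106178840-106178927 on the plus strand for Mirlet7g.
Mirlet7d hairpin: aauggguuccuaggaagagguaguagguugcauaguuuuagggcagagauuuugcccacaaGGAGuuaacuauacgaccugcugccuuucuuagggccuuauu
Mirlet7f-1 hairpin: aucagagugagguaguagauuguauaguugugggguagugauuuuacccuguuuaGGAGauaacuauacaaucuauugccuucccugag
Mirlet7g hairpin: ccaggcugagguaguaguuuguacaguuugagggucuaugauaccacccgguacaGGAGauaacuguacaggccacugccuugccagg

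In each of the 3 hairpins GGAG occurred once, between the 2 mature arms, and ended 4 bases before the 3p arm in Mirlet7d, 4 in Mirlet7f-1 and 3 in Mirlet7g. Of the 12 let-7 and Mir98 hairpins of the RefSeq table, 9 held GGAG, the exceptions being Mirlet7b, Mirlet7c-2 and Mir98. The letters alone are common: 44.5% of all 1005 mouse hairpins held them on the given strand, and 45.6% of the 399 hairpins of 80 to 110 bases. Between the arms they are rarer, at 8.07% of the 644 hairpins with both arms listed. A second motif linked to LIN28A, AAGNNG, was found 2 times in the Mirlet7d hairpin and not in the other 2 hairpins, against 28.3% of all hairpins with at least 1 match. These matches describe letters and not binding.

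The mature 5p strands are printed with the seed, bases 2 to 8, in capitals, because the seed is what makes the 3 genes 1 family.
let-7d-5p: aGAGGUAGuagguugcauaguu
let-7f-5p: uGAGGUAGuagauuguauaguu
let-7g-5p: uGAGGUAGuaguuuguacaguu
All 3 share the seed GAGGUAG, which 13 of the 1738 mature mouse microRNAs of the table carry. Counted from 1 at the 5′ end, let-7d-5p and let-7f-5p were identical at 19 of 22 bases and differed by A1U, G12A and C16U. Strands let-7d-5p and let-7g-5p were identical at 18 bases, and let-7f-5p and let-7g-5p at 20, where A12U and U18C separated them. The let-7f-5p strand is also made from a second hairpin, Mirlet7f-2, so reads of that arm could have been split between loci and the Mirlet7f-1 counts are uncertain to that extent; let-7d-5p and let-7g-5p have no such second hairpin.

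In the files' own build, mm9, Mirlet7d lies on chromosome 13 at 48631381 to 48631483 and Mirlet7f-1 at 48633198 to 48633286, with 1714 bases between them. Mirlet7g lies on chromosome 9 at 106081171 to 106081258, inside the span of Wdr82 (106073260 to 106094037), which encodes a subunit of histone methyltransferase complexes. Lin28a spans 133559245 to 133574731 and Zcchc11 108132031 to 108232020 on chromosome 4, and Lin28b spans 45096425 to 45190007 on chromosome 10. Dis3l2 spans 88600379 to 88946672 on chromosome 1. Zcchc6 spans 59873240 to 59924508 on chromosome 13, where the span of the non-coding Etohd2 overlaps it. Etohd2 had 82 poly(A) counts in siLin28a cells, 68 in siLuc cells and 75 in untreated cells, and since no source used here says whether strand was used in counting, part of the Zcchc6 counts may belong to it.

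The 3 let-7 precursors had the highest ratios of LIN28A CLIP to poly(A) reads among the 8 genes. Mirlet7f-1 had 493 reads in the 35L33G library, 345 in 2J3 and 414 in the polyclonal library, against 3 in untreated poly(A) RNA. Its log2 enrichment, computed per antibody with a pseudocount of 0.5 counts after TMM scaling, was 7.43 ± 0.27 (SD, n = 3 antibodies). All 3 CLIP libraries lay above the single poly(A) library, and the gene ranked 11 of 7820. Pooling the antibodies, the ratio of scaled counts was 204, with a 95% counting interval of 69.5 to 988 that is wide because the denominator is 3 reads. The rank is taken among transcripts that are mostly mRNAs. The 87 non-coding transcripts had a median enrichment of 1.55 and a maximum of 10.2, beside a median of −0.03 over all transcripts. Of these 87, 54 were called enriched by edgeR, beside 34.6% of all transcripts.

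Mirlet7g had 101 reads with 35L33G, 137 with 2J3 and 238 with the polyclonal antibody, against 4 in untreated poly(A) RNA. The enrichment was 5.60 ± 0.60 (SD, n = 3), rank 29, with a pooled ratio of 58.0 (22.5 to 214). Mirlet7d had 137, 179 and 226 reads in the same order of antibodies, against 8 in untreated poly(A) RNA. Again no CLIP library came near the poly(A) count in either gene. For Mirlet7d the enrichment was 4.93 ± 0.34 (SD, n = 3), rank 38, with a pooled ratio of 33 (16.6 to 76.9).

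Poly(A) RNA is selected by its tail, which processed precursor hairpins lack. The ratios therefore set CLIP reads on the hairpin against polyadenylated RNA of the locus, not against the hairpin itself. The untreated counts of 3, 4 and 8 are below the minimum of 10 used in the low-count filter, so these genes entered the fit through their CLIP counts alone. Their values are therefore given as a description, with no p-value. With a pseudocount of 5 counts the mean enrichments were 6.26 for Mirlet7f-1, 4.65 for Mirlet7g and 4.36 for Mirlet7d, so their size depends on it while their order does not.

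The antibodies did not recover the 3 precursors in equal proportion. By CPM, which scales counts to library size, Mirlet7g was 1.94-fold higher in the polyclonal library than in the mean of both monoclonal libraries, and Mirlet7d 1.39-fold. For Mirlet7f-1 the same ratio was 0.957. The SD of Mirlet7g over antibodies was higher than that of 96.7% of the 2740 transcripts with like counts, against 76.8% for Mirlet7d and 81.2% for Mirlet7f-1. With 1 library per antibody, an antibody and its library cannot be told apart.

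**Figure D1:**
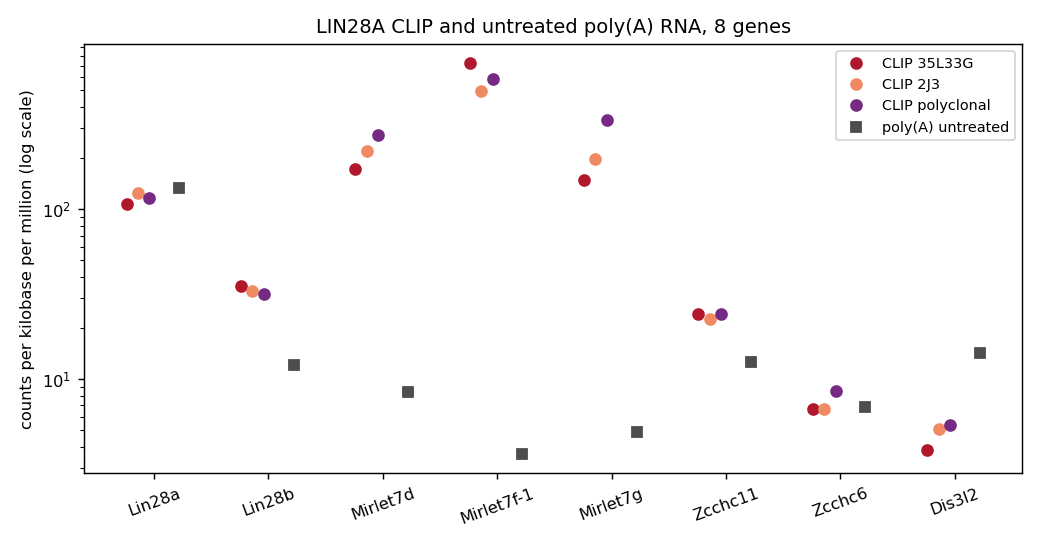
LIN28A CLIP and untreated poly(A) levels of the 8 genes, in CPM per kilobase of transcript (log axis); circles are the CLIP libraries by antibody and the square is the untreated poly(A) library, 1 library each. The 3 let-7 genes lie between 149 and 719.5 in CLIP and between 3.64 and 8.38 in poly(A) RNA, Lin28a is at 108 to 124 in CLIP and 133 in poly(A) RNA, and Dis3l2 is the lowest in CLIP.

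Per kilobase, the precursors were also among the most densely covered transcripts of the CLIP libraries. Mean CLIP density was 598 CPM per kilobase for Mirlet7f-1, 228 for Mirlet7g and 223 for Mirlet7d, at percentiles 99.3, 96.7 and 96.6 of all transcripts. Lin28a followed at 116 (percentile 91.8), Lin28b at 33.3 (68.9) and Zcchc11 at 23.7 (58.5). Zcchc6 at 7.31 (20.4) and Dis3l2 at 4.78 (10.8) were in the lower part of the distribution. A hairpin shorter than most mRNAs gives a high density from few reads, so the order of the let-7 genes against the mRNAs depends on this scaling.

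High enrichment was not shared by every microRNA gene of the CLIP table. It lists 7 microRNA genes, the 3 let-7 precursors and 4 others, and its smallest total over a row is 56 reads, so microRNA genes below that depth cannot be seen in it. Mir1944 had 788 reads with 35L33G, 1165 with 2J3 and 236 with the polyclonal antibody, against 24 in untreated poly(A) RNA, an enrichment of 5.17 ± 1.22 (SD, n = 3). Its adjusted p was 8.39e-07 by the quasi-likelihood test of edgeR with Benjamini-Hochberg adjustment. Mir677 had 178, 257 and 60 reads against 3, an enrichment of 5.88 ± 1.10 (SD, n = 3), given without a p-value for the same reason as the let-7 genes.

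Both of these genes were lowest with the polyclonal antibody, where Mirlet7d and Mirlet7g were highest. Mir715 was not called, at −0.18 ± 0.44 (edgeR adjusted p = 0.874), and Mir17hg, the host transcript of a microRNA cluster, was depleted at −1.93 ± 0.85 (edgeR adjusted p = 0.000352; SD, n = 3). Of the 4 others, the RefSeq hairpin of Mir677 alone was matched, and it held no GGAG.

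**Figure D2:**
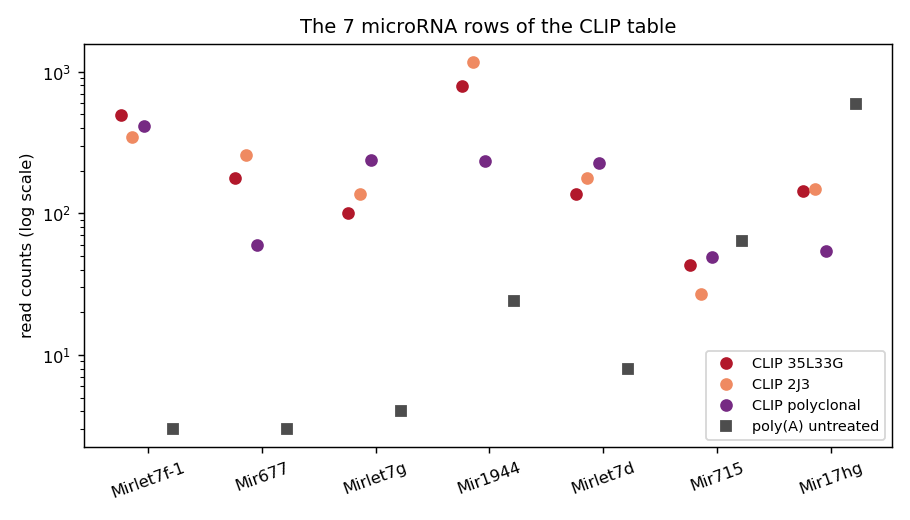
Read counts (log axis) of the 7 microRNA genes in the CLIP table, by antibody (circles) and in untreated poly(A) RNA (square), 1 library each. The let-7 genes have 101 to 493 CLIP reads and 3 to 8 poly(A) reads; Mir1944 and Mir677 are lowest with the polyclonal antibody, and Mir17hg has fewer CLIP reads than its 589 poly(A) reads.

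Exon reads of Wdr82, the gene around let-7g, did not share its enrichment. Wdr82 had 2055, 2214 and 2140 CLIP reads (35L33G, 2J3 and polyclonal) against 3754 in untreated poly(A) RNA, a log2 enrichment of −0.26 ± 0.05 (SD, n = 3; edgeR adjusted p = 0.021). The hairpin inside it thus stood on the other side of 0 in all 3 libraries. The Wdr82 counts cover 4313 exon bases of a span of 20778, so other RNA around the hairpin was not measured. The denominators are also unlike, an abundant polyadenylated mRNA against 4 reads for Mirlet7g.

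The authors' deposited table gives its own log2 ratios, which equal the log2 of CLIP counts plus 1 over the poly(A) counts of the same table plus 1. In it, a ratio was listed at 0 wherever both counts were under 200. This touched 154 transcripts with unequal counts for 35L33G, 132 for 2J3 and 138 for the polyclonal antibody, and Mirlet7d and Mirlet7g were among them for both monoclonal antibodies. In the authors' deposited table Mirlet7d and Mirlet7g were listed at 0 for 35L33G and for 2J3 and at 4.83 and 5.58 for the polyclonal antibody, with an FDR of 1 for each. By the same formula without that rule, the monoclonal ratios would be 4.11 and 4.49 for Mirlet7d and 4.35 and 4.79 for Mirlet7g. Mirlet7f-1 passed the rule in all 3 libraries, at 7.36, 6.85 and 7.11 with an FDR of 0.000484 in the authors' deposited table.

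None of the 5 mRNAs had a low FDR in the authors' deposited table, whose ratios have no depth factor where the edgeR fit uses TMM scaling. Lin28b stood at 1.40, 1.33 and 1.31 (35L33G, 2J3 and polyclonal) with an FDR of 0.203 in the authors' deposited table, and Zcchc11 at 0.78, 0.72 and 0.85 with an FDR of 0.509. There Lin28a stood at −0.46, −0.23 and −0.29, Zcchc6 at −0.47, −0.44 and −0.06, and Dis3l2 at −2.01, −1.58 and −1.47, each with an FDR of 1 in the authors' deposited table. Lin28b and Zcchc11 thus had the same direction as in the edgeR fit without a low FDR. Lin28a and Zcchc6, which the edgeR fit did not call, had the opposite direction. Dis3l2 had the same direction in both, but its FDR is no check of its edgeR depletion call. Of the 5 mRNAs it had the lowest ratios and the highest authors' p-value, as a test for enrichment alone would give. Such a test cannot give a depleted gene a low FDR, and the labels do not say which kind was used.

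The paralogs differed in CLIP. Lin28b mRNA, which encodes the paralog known in human cells for holding let-7 primary transcripts in the nucleus, had 1465 reads with 35L33G, 1395 with 2J3 and 1384 with the polyclonal antibody, against 607 in untreated poly(A) RNA. It was enriched by 1.77 ± 0.06 on the log2 scale (SD, n = 3; edgeR adjusted p = 1.19e-09), rank 694 of 7820. Every CLIP library was more than 2-fold above the poly(A) library in counts, and the antibodies lay within 0.12 of each other.

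Lin28a mRNA, which encodes the precipitated protein, had 2884 reads with 35L33G, 3387 with 2J3 and 3255 with the polyclonal antibody, against 4304 in untreated poly(A) RNA. Its enrichment was 0.11 ± 0.11 (SD, n = 3; edgeR adjusted p = 0.316), rank 3568, so it was not called in either direction. Scaled to total counts in place of TMM, the edgeR estimate for Lin28a was −0.26 (adjusted p = 0.0176) while the median of all transcripts was −0.38 in place of −0.01. Relative to that median Lin28a stood at 0.12 under both scalings. The same change of scaling put 35.5% of the called transcripts on the enriched side, against 50.9% with TMM.

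By the authors' RPKM, which scales reads to transcript length and library size, Lin28a was the more abundant paralog in untreated poly(A) RNA, at 133 against 12.1 for Lin28b, a ratio of 11. In CLIP the per-kilobase ratio of Lin28a to Lin28b was 3.06 with 35L33G, 3.77 with 2J3 and 3.65 with the polyclonal antibody. The ratio was lower in each CLIP library than in the poly(A) library; this difference has no test of its own.

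Among the enzymes, the uridylyltransferase mRNA Zcchc11 was enriched, the exonuclease mRNA Dis3l2 was depleted and Zcchc6 was not called. Zcchc11 had 1129 reads with 35L33G, 1076 with 2J3 and 1180 with the polyclonal antibody, against 704 in untreated poly(A) RNA. Its enrichment was 1.23 ± 0.06 (SD, n = 3; edgeR adjusted p = 4.11e-07), rank 1326. The 3 CLIP libraries agreed closely and all exceeded the poly(A) library.

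Zcchc6, the second enzyme that adds uridines to pre-let-7, had 286 and 292 reads with the monoclonal antibodies and 380 with the polyclonal antibody, against 354 in untreated poly(A) RNA. Its enrichment was 0.39 ± 0.21 (SD, n = 3; edgeR adjusted p = 0.176), so it was not called. By raw counts the CLIP libraries lay on both sides of the poly(A) library. The difference between the enrichments of Zcchc11 and Zcchc6 was not tested.

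Dis3l2 had 94 reads with 35L33G, 127 with 2J3 and 137 with the polyclonal antibody, against 419 in untreated poly(A) RNA. Its enrichment was −1.28 ± 0.27 (SD, n = 3; edgeR adjusted p = 0.0029), rank 6607, and each CLIP library lay below the poly(A) library. Of the 5 mRNAs, 2 were called enriched, 1 depleted and 2 not called. Such calls are common in this comparison: 34.6% of the 7820 transcripts were called enriched and 33.3% depleted, so a call alone sets none of them apart. Leaving out any 1 antibody kept every call of the 5.

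**Figure D3:**
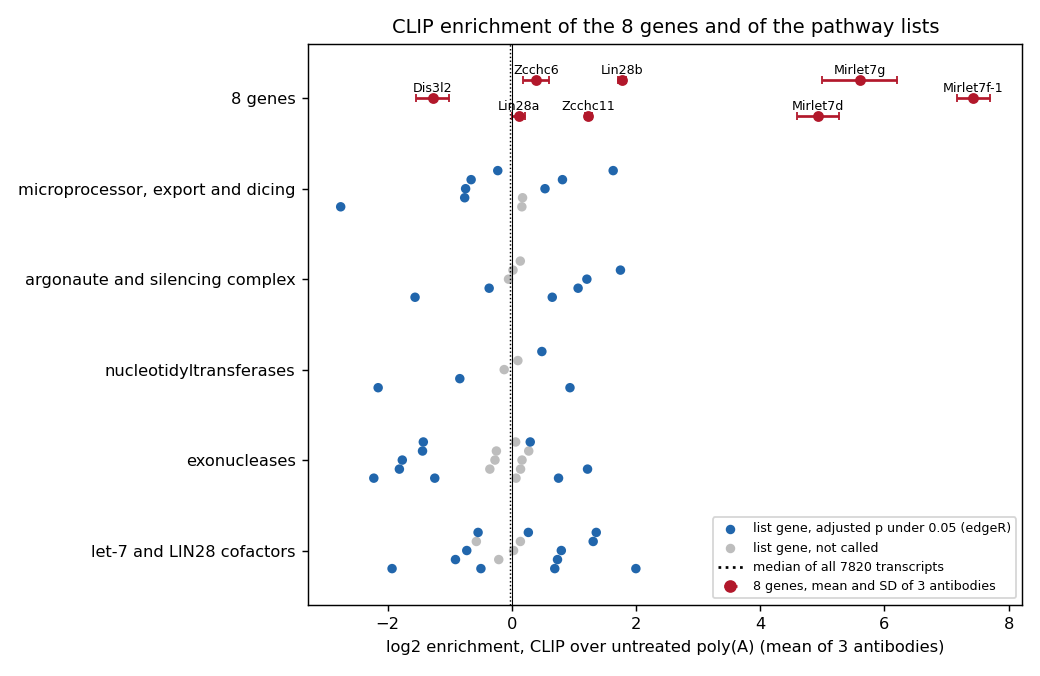
Mean log2 enrichment of CLIP over untreated poly(A) RNA for the 8 genes (red, bars are the SD over 3 antibodies) and for genes of 5 related lists (blue, edgeR adjusted p under 0.05; grey, not called); the dotted line is the median of all 7820 transcripts. The let-7 precursors at 4.93 to 7.43 lie to the right of every listed gene, Msi2 being the highest of those at 2.00, and Dis3l2 lies at −1.28.

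Where reads fell along the mRNA differed between the genes. The share of coding reads among coding and 3′ UTR reads of Lin28a was 7.32% with 35L33G, 5.85% with 2J3 and 5.25% with the polyclonal antibody. It was 15.3% in the CLIP table's poly(A) column, and coding sequence makes up 18.1% of the transcript's length. All 3 antibodies were thus below the poly(A) share, and the mean of 6.14% ± 1.06 (SD, n = 3) was lower than that of all but 1.05% of coding transcripts.

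Relative to poly(A) RNA, the log2 ratio of coding to 3′ UTR reads of Lin28a in CLIP was −1.47 ± 0.26 (SD, n = 3), at percentile 16.7, beside a median of −0.21 over all transcripts. In an edgeR fit of coding counts alone against those of the poly(A) column, Lin28a was at −0.95 (adjusted p = 0.0017), which is a depletion; of 3′ UTR counts alone it was at 0.16 (edgeR adjusted p = 0.261). Its exon counts are mostly 3′ UTR reads, with 2672, 3184 and 3084 of them in the 3 CLIP libraries. For Lin28a and the mRNAs below, the coding and 3′ UTR fits had separate TMM factors. Their estimates are therefore not on 1 scale, and the gap between them does not measure a preference for a region.

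Lin28b has a similar layout, with a coding sequence of 15.1% of its length, but not the same split. Its coding share was 23.3% with 35L33G, 23.0% with 2J3 and 17.1% with the polyclonal antibody, against 19.8% in the poly(A) column. The antibodies lay on both sides of the poly(A) share. Lin28b was enriched in coding counts at 2.12 (edgeR adjusted p = 7.43e-07) and in 3′ UTR counts at 1.64 (edgeR adjusted p = 2.76e-07). Relative to poly(A) RNA, its log2 ratio of coding to 3′ UTR reads was 0.10 ± 0.31 (SD, n = 3).

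The enzyme mRNAs are mostly coding sequence, and so were their CLIP reads. The mean coding share was 91.1% ± 2.5 for Zcchc11, against 95.4% in the poly(A) column, and 90.5% ± 2.9 for Zcchc6, against 83.7% (SD, n = 3 each). As a share of all exon counts, coding reads of Zcchc6 were at 84.1% ± 2.6 in CLIP (SD, n = 3) and 83.1% in the poly(A) column. The gap for Zcchc6 thus depended on the denominator. Zcchc11 was enriched in coding counts at 1.42 (edgeR adjusted p = 4.73e-09) and in 3′ UTR counts at 2.07 (edgeR adjusted p = 0.00633). For Zcchc6 the estimates were 0.37 in coding counts (edgeR adjusted p = 0.238) and −0.90 in 3′ UTR counts (edgeR adjusted p = 0.36), neither of which passed.

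Dis3l2 had 77 coding and 0 3′ UTR reads with 35L33G, 119 and 2 with 2J3, and 115 and 16 with the polyclonal antibody. The 0 of 77 allows a 3′ UTR share of up to 3.90% when a count of 0 is taken to allow 3 reads, and the exact 95% binomial interval of the coding share starts at 95.3%. The polyclonal library, at a coding share of 87.8% (80.9 to 92.9%), lay below both others. The poly(A) column had a coding share of 96.4%. Over all coding transcripts the median coding share was 70.0% in CLIP and 73.5% in the poly(A) column, for a median length share of 56.6%.

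**Figure D4:**
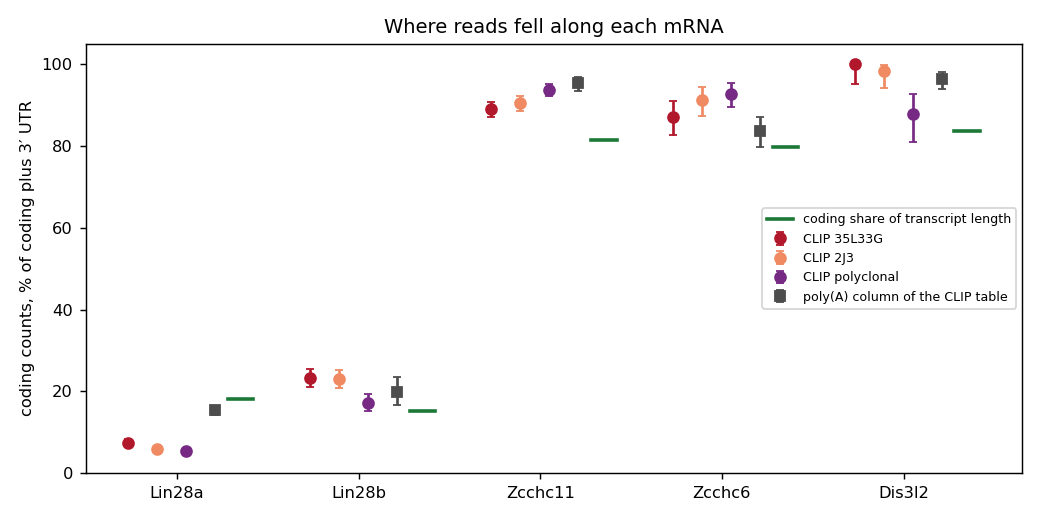
Coding reads as a percentage of coding plus 3′ UTR reads for the 5 mRNAs, in each CLIP library (circles), in the CLIP table's poly(A) column (squares) and the share that coding sequence takes of transcript length (green bars); error bars are exact 95% binomial intervals for counting error. Lin28a lies at 5.25 to 7.32% in CLIP, below its poly(A) share of 15.3%, while Lin28b lies at 17.1 to 23.3%, on both sides of 19.8%.

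The siRNA comparisons have 1 library per condition. They therefore have no replicate check and no p-value, and the intervals given are exact 95% intervals for counting error only. In bulk libraries, fewer cells that make an RNA and less of it per cell cannot be told apart. The siLin28a siRNA is a duplex of 19 base pairs with overhangs, printed here because it defines the knockdown; the study's labels give its strands without saying which is the guide.
siLin28a strand 1: auguucuucccuuuuggcc
siLin28a strand 2: ggccaaaagggaagaacau

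Lin28a, the target, had an authors' RPKM of 34.0 in siLin28a cells, 102 in siLuc cells and 133 in untreated cells. The siLin28a level was 33.4% of siLuc (interval 31.1 to 35.8%), a log2 change of −1.58, which was the 5th lowest of 8859 transcripts with at least 200 counts over both libraries. Against untreated cells it was 25.4% (23.8 to 27.2%), the 2nd lowest of 9056. The siLuc library itself held 76.2% of the untreated level (72.6 to 80%), a log2 change of −0.39 with an siRNA directed at luciferase.

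Lin28b had an RPKM of 6.28 in siLin28a cells, 9.58 in siLuc cells and 12.1 in untreated cells. The siLin28a level was 65.6% of siLuc (56.4 to 76.2%), a log2 change of −0.61 at percentile 3.95 of all transcripts, and 51.8% of untreated (45.1 to 59.4%). Lin28b was thus lowest in siLin28a cells, as Lin28a was, by a smaller factor. Its change did not reach 2-fold, and the spread of all transcripts in the comparison with siLuc, as a scaled median absolute deviation, was 0.36. The Lin28a to Lin28b ratio of RPKM was 5.41 in siLin28a cells, 10.6 in siLuc cells and 11 in untreated cells.

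The enzyme mRNAs changed little between siLin28a and siLuc. Zcchc11 had an RPKM of 14.1 in siLin28a cells, 16.8 in siLuc cells and 12.6 in untreated cells, a log2 change of −0.25 against siLuc (−0.40 to −0.11) and 0.17 against untreated cells, so its direction depended on the baseline. Zcchc6 had 9.36, 9.40 and 6.88 in the same order, with a log2 change of −0.01 against siLuc (−0.20 to 0.19). Dis3l2 had 18.5, 18.1 and 14.3, with a log2 change of 0.03 against siLuc (−0.15 to 0.22).

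In siLuc cells against untreated cells all 3 enzymes were higher, by 0.42 for Zcchc11, 0.45 for Zcchc6 and 0.34 for Dis3l2 on the log2 scale, at percentiles 91.4, 92.7 and 86.7, with counting intervals above 0. Lin28a at −0.39 and Lin28b at −0.34 were lower there. These shifts between libraries without siLin28a were larger than those of Zcchc11, Zcchc6 and Dis3l2 between siLin28a and siLuc. Of the 5 mRNAs, Lin28a alone was past 2-fold between siLin28a and siLuc, where 0.44% of transcripts were lower by 2-fold or more and 1.65% higher. The same held between siLin28a and untreated cells, beside 0.696% of transcripts lower by 2-fold or more and 2.04% higher. None of the 5 was past 2-fold between siLuc and untreated cells, beside 0.366% lower and 0.252% higher.

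Poly(A) reads on the let-7 genes were too few to compare. Mirlet7d had 9 reads in siLin28a cells, 9 in siLuc cells and 8 in untreated cells. Mirlet7f-1 had 6, 2 and 3, and Mirlet7g 5, 5 and 4, in the same order. The counting interval of the change against siLuc ran from 27.4 to 221% of the siLuc level for Mirlet7d, from 41.7 to 2365% for Mirlet7f-1 and from 17.9 to 338% for Mirlet7g. A 2-fold change in either direction was therefore not detectable at this depth, and mature let-7 was not measured by these libraries.

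The poly(A) table lists 4 more genes of the family. Mirlet7i, Mirlet7f-2 and Mirlet7e had 0 reads in siLin28a and siLuc cells and 3, 2 and 1 in untreated cells, and Mir98 had 2, 0 and 0 in siLin28a, siLuc and untreated cells. Of all its 180 microRNA genes, 145 had any read in untreated cells, with a median of 2 reads.

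Ribosome footprints of Lin28a were at 30.4 CPM in siLin28a cells and 119 in siLuc cells. The siLin28a level was 25.7% of siLuc (21.8 to 30.1%), a log2 change of −1.96, the 6th lowest of 7799 transcripts. The median transcript was at −0.23 by total counts, and relative to it Lin28a was at −1.73.

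Zcchc11 footprints were at 43.5 CPM in siLin28a cells and 56.5 in siLuc cells, a log2 change of −0.38, or −0.15 relative to the median. Those of Zcchc6 were at 13.4 and 13.6, a change of −0.02, or 0.20 relative to the median. Dis3l2 footprints were at 11.2 in siLin28a cells and 21.4 in siLuc cells, 52.4% of siLuc (38.8 to 70.0%). That is a log2 change of −0.93, or −0.70 relative to the median, while Dis3l2 mRNA differed by 0.03. Lin28a was past 2-fold and these 3 genes were not, beside 9.35% of transcripts lower by 2-fold or more and 3.47% higher.

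**Figure D5:**
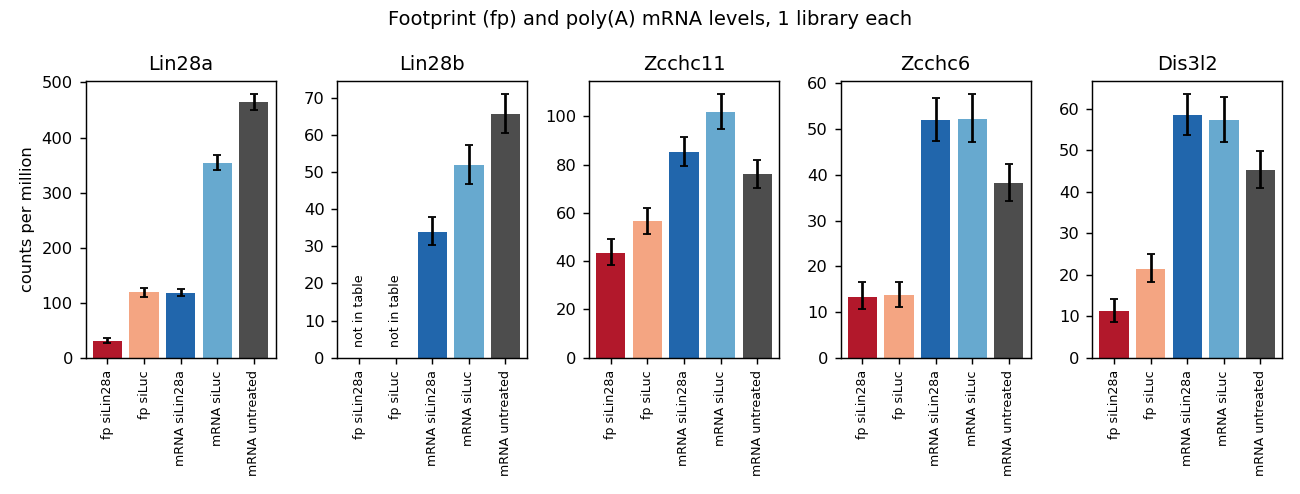
Footprint (fp) and poly(A) mRNA levels of the 5 mRNAs in CPM, 1 library per bar; error bars are exact 95% counting intervals, each panel has its own axis, and Lin28b is not in the footprint table. Lin28a is lowest in siLin28a cells in both assays, Lin28b mRNA is lowest in siLin28a and highest in untreated cells, and Dis3l2 footprints are at 11.2 with siLin28a and 21.4 with siLuc beside mRNA at 58.5 and 57.3.

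Ribosome density, footprints per mRNA, was taken within the footprint table and centred on the median transcript. In siLin28a against siLuc cells it changed by −0.82 for Dis3l2 on the log2 scale (−1.27 to −0.36), at percentile 8.12 of 7799 transcripts. Zcchc11 was at 0.06 (−0.20 to 0.33) and Zcchc6 at 0.28 (−0.18 to 0.74), with intervals that include 0. None of the 4 measured genes was past 2-fold, where 3.77% of transcripts were lower by 2-fold or more and 5.24% higher. Without centring, Dis3l2 alone of the 4 was past 2-fold, at −1.03, as were 710 of the 7799 transcripts on the lower side.

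For Lin28a the density change was −0.55 (−0.88 to −0.22) at percentile 18.2, and it rested on which poly(A) tally was used. The footprint table lists 223 poly(A) counts for Lin28a in siLin28a cells and 398 in siLuc cells, which leaves 43.8% of the siLuc level, where the poly(A) table leaves 33.4%. With the mRNA change of the poly(A) table, the density change of Lin28a was −0.16. The footprint table's tally was 15% of the poly(A) table's siLuc count, close to the coding share of 15.3%. In siLin28a cells it was 19.6% of the poly(A) table's count, further from that share. The cause of this difference was not tested. Over 6460 transcripts the median siLuc tally was 77.9% and the median coding share of exon counts 70.7%. Of these transcripts, 80.7% had both within 1.25-fold of each other.

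Lin28b is not listed in the footprint table, whose lowest poly(A) count is 80. Its siLuc poly(A) count times its coding share comes to 75.9, and its siLin28a count to 63.9. These are estimates: the median siLuc tally was 77.9%, above the median coding share of 70.7%, so they may be too low. Why Lin28b is not listed was not tested. With no listed counts, no ribosome density is given for Lin28b.

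The 4 genes differed widely in ribosome density within a library. The log2 ratio of footprint to poly(A) CPM was 0.33 in siLin28a cells and 1.10 in siLuc cells for Lin28a, at percentiles 73.5 and 90.2. It was −0.95 and −0.80 for Zcchc11 (percentiles 41.9 and 33.4), in siLin28a and siLuc cells. For Dis3l2 it was −2.31 in siLin28a cells and −1.28 in siLuc cells (9.07 and 19.5), and for Zcchc6 −2.05 and −2.12 (13.5 and 5.68). The median transcript was at −0.65 in siLin28a cells and −0.33 in siLuc cells. Lin28a was highest of the 4 in both libraries with this tally, but its place depended on the tally. The exon counts of the poly(A) table include 3′ UTR reads, and the coding share of Lin28a in the CLIP table's poly(A) column was 15.3%. With those exon counts as mRNA, Lin28a was at −1.95 in siLin28a cells and −1.58 in siLuc cells (percentiles 23.8 and 22.2), below Zcchc11 at −0.97 and −0.85. The part of 3′ UTR reads in these ranks was not tested. Dis3l2 at −2.38 in siLin28a cells and −1.42 in siLuc cells stood below Zcchc6 in siLin28a cells and above it in siLuc cells with either tally, Zcchc6 being at −1.95 and −1.93 in the poly(A) table's.

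The other genes of microRNA processing and LIN28 biology were read from 5 lists of 62 genes in all, of which 58 are in the CLIP table. Of these 19 were enriched (32.8%), 20 depleted (34.5%) and 19 not called, with a median of 0.05 beside −0.03 over all transcripts. Both shares are near the 34.6% and 33.3% of all transcripts, so as a group these mRNAs did not stand apart in CLIP.

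Of the microprocessor, export and dicing genes, 3 of 10 were enriched and 5 depleted. Ran, the GTPase that carries precursors out of the nucleus with exportin, had 4920, 4644 and 4639 CLIP reads (35L33G, 2J3 and polyclonal) against 2235 in untreated poly(A) RNA, an enrichment of 1.63 ± 0.07 (SD, n = 3; edgeR adjusted p = 4.37e-12). Tarbp2, a partner of Dicer, had 43, 39 and 17 against 307, an enrichment of −2.76 ± 0.74 (edgeR adjusted p = 0.000192; SD, n = 3). The core microprocessor and dicing genes were nearer to 0: Drosha at −0.23 (edgeR adjusted p = 0.0486), Dgcr8 at 0.17 and Dicer1 at 0.16, the last 2 not called.

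Of the Argonaute and silencing complex genes, 4 of 9 were enriched and 2 depleted. Tnrc6b, a GW182 scaffold of silencing, was highest at 1.75 ± 0.13, and Eif2c2, which encodes AGO2, was at 1.07 ± 0.05 (edgeR adjusted p = 5.47e-10 and 9.7e-09; SD, n = 3 each). The helicase gene Mov10 was lowest at −1.56 ± 0.24 (edgeR adjusted p = 1.22e-07; SD, n = 3).

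Other nucleotidyltransferases split evenly, with 2 of 6 enriched, 2 depleted and 2 not called. Papola, the main nuclear poly(A) polymerase, was at 0.94 ± 0.13, and Tut1, which adds uridines to U6 RNA, at −2.15 ± 0.37 (edgeR adjusted p = 3.77e-08 and 4.85e-07; SD, n = 3 each). Among exonucleases and exosome genes 3 of 17 were enriched and 6 depleted. Xrn1, the cytoplasmic 5′ to 3′ exonuclease, was highest at 1.22 ± 0.22, and the exosome subunit gene Exosc4 lowest at −2.22 ± 0.38 (edgeR adjusted p = 1.42e-05 and 4.91e-05; SD, n = 3 each). Dis3l, a close relative of Dis3l2, was depleted like it, at −1.43 ± 0.17 (edgeR adjusted p = 0.00569; SD, n = 3), while Dis3, the nuclear relative, was at 0.06 (edgeR adjusted p = 0.643).

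Of the let-7 and LIN28 cofactor or target genes, 7 of 16 were enriched and 5 depleted. Msi2, an RNA-binding protein of the Musashi family, had 3809, 3743 and 3885 CLIP reads against 1397 in untreated poly(A) RNA, an enrichment of 2.00 ± 0.02 (SD, n = 3; edgeR adjusted p = 4.71e-13). Myc, a known let-7 target, had 95, 78 and 85 against 480, an enrichment of −1.93 ± 0.15 (edgeR adjusted p = 6.77e-05; SD, n = 3). Its relative Mycn was on the other side at 0.74 ± 0.08 (edgeR adjusted p = 4.23e-06; SD, n = 3). Igf2bp1, an RNA-binding protein whose mRNA is a let-7 target, was at 0.69 ± 0.02, and Trim71, another let-7 target, at 0.27 ± 0.08 (edgeR adjusted p = 3.43e-08 and 0.0249; SD, n = 3 each).

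Between siLin28a and siLuc none of the 60 listed genes with enough poly(A) counts was past 2-fold in mRNA. Of all transcripts, 0.44% were lower by 2-fold or more and 1.65% higher. The listed genes had a median of −0.04 and a range of −0.54 to 0.70 on the log2 scale. The ends of that range were Papd4, a cytoplasmic poly(A) polymerase, and Eif2c1, which encodes AGO1. In footprints 13 of 58 were at least 2-fold lower (22.4%, beside 9.35% of all transcripts). None was at least 2-fold higher, beside 3.47% of all transcripts. The median of the 58 was −0.70, or −0.47 relative to all transcripts. With TMM factors 3 of 58 were at least 2-fold lower, beside 4% of all transcripts, so that count depended on the scaling. None was at least 2-fold higher with TMM factors, beside 7.82% of all transcripts.

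The cofactor and target list held 8 of those 13 genes, and 1 of 16 with TMM factors. Syncrip, an RNA-binding protein of the hnRNP family, was lowest in it, with footprints at 132 CPM in siLin28a cells and 317 in siLuc cells. Syncrip mRNA changed by −0.53 on the log2 scale, and its ribosome density, centred on the median transcript, by −0.51. Dhx9, an RNA helicase known to bind LIN28A in human cells, had footprints at 70.7 in siLin28a cells and 163 in siLuc cells. Dhx9 mRNA changed by −0.42 and its density by −0.55. Msi2 was the highest of the list, with footprints at 56.3 in siLin28a cells and 40.8 in siLuc cells. Msi2 mRNA changed by 0.25 and its density by 0.14.

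The nearest transcripts were sought over the CLIP enrichment, both poly(A) changes and the footprint change taken as 4 log2 values. Lin28a is the target of the siRNA, so its knockdown enters its own values and sets it apart by design. Among 6332 transcripts in all 3 tables, the nearest to Lin28a by Euclidean distance were Lama3 at 0.66, Nars at 0.96 and Psat1 at 1.09. The nearest to Zcchc11 were Suz12 at 0.08, Calm2 at 0.08 and Pdcd2 at 0.12, and those to Zcchc6 were Golga3 at 0.07, Nfe2l2 at 0.11 and Ell2 at 0.13. Inpp5b at 0.24, Sfrs18 at 0.26 and Pelo at 0.26 were nearest to Dis3l2. Lin28b is not in all 3 tables and was left out of this search. The distances rest on libraries that the comparisons share.

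Libraries held 7698479 to 8027670 exon counts in CLIP, 7475174 to 9605641 in poly(A) RNA and, for footprints, 5980673 in siLin28a and 7570209 in siLuc cells. The 12 embryonic stem cell markers read as a check of the label were all detected, and their summed level was 8007 CPM in siLin28a cells, 6557 in siLuc cells and 6885 in untreated cells. Of 9 fibroblast markers 5 were listed, with sums of 308, 294 and 185, nearly all Vim, while Col1a1 was at 1.25, 1.34 and 1.73. Of 10 early lineage markers 9 were listed, with sums of 59.5, 50.4 and 45.9, mostly Tubb3, and Cdx2 was at 0 in untreated cells. The part of these differences in the siRNA results was not tested.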

How the data were processed

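The authors deposited whole-read counts per RefSeq transcript: exon, coding and 3′ UTR counts for CLIP, exon counts with RPKM for poly(A) RNA, and footprint and poly(A) counts for profiling. The build mm9, GSNAP and bedtools are named per the submitters' processing notes; versions, roles, counting rule and use of strand are not named by any source used here. The authors' deposited log2 ratios, p-values and FDR were used where named. The CLIP table's poly(A) column, which names no condition, served as the authors' value for coding shares and region fits; 15 other per-sample columns were left unused.

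The 8 genes and the 5 lists were chosen with earlier results of these data known. CLIP (3 libraries) was tested against untreated poly(A) counts (1 library) with edgeR 4.0.16 in R 4.3.3: TMM factors, filterByExpr with a minimum count of 10, quasi-likelihood test, Benjamini-Hochberg adjustment over 7820 transcripts, threshold 0.05. The lone input is assumed to vary like the CLIP libraries. No label says that these came from separate cultures, so p-values reflect their spread alone, and it may be technical. Log2 enrichments used a pseudocount of 0.5 counts.

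The siRNA comparisons used CPM with the same pseudocount, for transcripts with at least 200 poly(A) counts over both libraries, or 50 in each assay of the footprint table. Intervals are 95% and cover counting error only; they are exact (SciPy 1.17.1) except those of density changes, a normal approximation on the log scale. Named genes are the 8 members, Wdr82, the other microRNA genes, the 3 nearest patterns of each mRNA except Lin28b, and, in each list, the genes with the highest and lowest enrichment and the largest mRNA change, plus others given for their known role and chosen after their values were seen. RefSeq names Zcchc11 as Tut4 and Zcchc6 as Tut7. Alternatives were other scalings, filters, inputs, tallies and baselines, DESeq2 1.42.0, and each CLIP library left out.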

Additional observations from a re-analysis of the deposited data

How the results depend on the processing

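The calls of the 5 mRNAs were the same with RLE factors, DESeq2, the CLIP table's poly(A) column as input and each CLIP library left out. The low-count filter removed none of the 7820 transcripts, so leaving it out gave the same fit and is no check. Scaling by total counts turned the Lin28a estimate to −0.26 and coding counts to −0.95. With 3′ UTR counts, an alternative chosen after seeing the data, Zcchc6 was at −0.90, Dis3l2 lost its call at −0.82 (edgeR adjusted p = 0.784), 1500 transcripts were depleted in place of 2604, and 9 listed genes in place of 20; fewer transcripts could be tested. With the footprint table's poly(A) tally 81 transcripts were at least 2-fold higher in siLin28a over siLuc mRNA, in place of 146. With untreated cells as baseline 63 were at least 2-fold lower, in place of 39, and Zcchc11 was at 0.17. TMM factors gave 610 transcripts at least 2-fold higher in footprints, in place of 271, and 312 lower, in place of 729. Density changes without centring passed 2-fold upward in 163, in place of 409, and downward in 710, in place of 294. Dis3l2 was among the 710, at −1.03 in place of −0.82. Coding over exon counts gave a median share of 68.2%, in place of 70.0%. Zcchc6 moved to 84.1%, in place of 90.5%, and Dis3l2 to 86.5%, in place of 95.4%. With the poly(A) table's exon counts as mRNA, also chosen after seeing the data, the median log2 ribosome density in siLuc cells was −0.68, in place of −0.33. Apart from the effects of construction named here, the cause of these differences was not tested. No paired analysis was possible because the labels give the groups no shared replicate numbers. Depth limits the let-7 genes most, with single-digit poly(A) counts, and the 3′ UTR counts of Dis3l2.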
